A study of Mus musculus with 6 samples.

Results

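The 10 genes described here encode heat shock proteins, and they were selected by symbol from the 32285 genes counted in 6 single-cell RNA-seq libraries of a mouse ovarian cancer model. They are Hspa1a, Hspa1b, Hspa8, Hsph1, Dnajb1, Hsp90aa1, Hsp90ab1, Hspb1, Hspd1 and Hspe1. All 10 were found, and they were chosen with their levels in these libraries already known, so every value is given as a description without a test. The set is usually called cytosolic, but Hspd1 and Hspe1 encode the chaperonin of the mitochondrial matrix and are therefore described apart.

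Each library came from 1 female C57BL/6 mouse aged 6 to 8 weeks at injection. KPCA cells, a homologous recombination-proficient line, were placed in the ovarian bursa of every animal, antibody dosing began after day 9 and tissue was collected on day 30. The control animal received solvent and a control rat IgG. The other 5 received 2DG (an inhibitor of glycolysis and of N-linked glycosylation), 2FF (a fluorinated fucose analog that blocks fucosylation), anti-PD-L1 by itself, or the antibody combined with either sugar analog, named 2DG plus anti-PD-L1 and, likewise, 2FF plus anti-PD-L1. In both 2FF groups the injected cancer cells had also been treated with 2FF beforehand. With 1 mouse for each treatment, an effect of the treatment and a difference between 2 animals or 2 tissue preparations cannot be told apart. The labels call the tissue lymph node, whereas the methods describe dissociated orthotopic tumors, and the design text speaks of young and aged mice although the methods give a single age range. Of 8 genes of lymph node stroma, Ccl21a, Ccl19, Madcam1 and Glycam1 were at or near 0 in all 6 libraries, and Pdpn was the highest at 48.6 to 108.9 CPM (counts per 1000000 UMIs, or unique molecular identifiers, of the library). The leukocyte gene Ptprc was at 1048.8 to 1835 CPM, while the epithelial genes Krt8, Krt18 and Epcam did not exceed 18.3 CPM.

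Heat shock proteins are chaperones that hold, fold or refold other proteins. Under proteotoxic stress the transcription factor HSF1 binds repeated GAA units, the heat shock elements, in the promoters of the inducible members, whereas Hspa8 and Hsp90ab1 encode forms that are made in most cells without stress. The response is fast, and enzymatic dissociation and warming of tissue are known to set it off in leukocytes before the cells are captured.

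The upstream sequences of the inducible pair, Hspa1a and Hspa1b, are shown because they are almost the same. They lie before the transcripts, so they have no bearing on which gene a read is given to. Both genes lie on the minus strand of chromosome 17 in GRCm38, Hspa1a at chr17:34969190-34972156 and Hspa1b at chr17:34956436-34959238, with 9951 bases between them. The 150 bases before each RefSeq start (build GRCm38.p6), at chr17:34972157-34972306 and chr17:34959239-34959388, differ at 1 base. Capitals mark the core of a heat shock element, GAANNTTC or TTCNNGAA, both of which read the same on the opposite strand.

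Hspa1a: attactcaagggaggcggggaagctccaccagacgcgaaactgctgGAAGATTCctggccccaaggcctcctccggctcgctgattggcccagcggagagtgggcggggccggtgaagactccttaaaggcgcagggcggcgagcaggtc
Hspa1b: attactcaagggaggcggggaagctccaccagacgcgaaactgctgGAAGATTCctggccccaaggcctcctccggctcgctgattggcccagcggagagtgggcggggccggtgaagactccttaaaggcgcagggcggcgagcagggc

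RefSeq promoters, which span 250 bases before the start and 50 from it on, were found for 7 members. No entry was found for Hspa8, Hsp90aa1 and Hsp90ab1. Either core was present in 5 of the 7, against 15.1% of 32851 promoters of the same length. The core of Hspa1a and of Hspa1b lay at -104 to -97, with the start counted as 0. Hsph1 held 3 sites, Hspb1 held 2 and Hspe1 held 3, and 2 or more sites were present in 1.96% of all promoters. Dnajb1 and Hspd1 held neither core in this window. A run of 3 units, that is, either core followed after 2 further bases by the next alternating unit, occurred in Hsph1 and Hspe1 and in 0.603% of all promoters. Windows of 30 bases around the sites upstream of the start set the single core of Hsph1 (chr5:149636351-149636380, minus strand), the separate pair of Hspb1 (chr5:135887801-135887830, plus strand) and the overlapping cores of Hspe1 (chr1:55088053-55088082, plus strand) beside each other.

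Hsph1: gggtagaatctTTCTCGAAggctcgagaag
Hspb1: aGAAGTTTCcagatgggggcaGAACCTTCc
Hspe1: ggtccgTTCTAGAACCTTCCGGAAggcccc

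The transcripts of Hspa1a and Hspa1b also share sequence. Of the windows of 90 bases in the Hspa1a transcript, 49.3% occur unchanged in that of Hspa1b, and 52.3% the other way round. In the last 400 bases, where a 3' library reads, 0% of windows are shared. Hspa1a took between 30.4% and 68.2% of the pair's UMIs in the 68 combinations of gate and library with at least 50 of them. In neutrophils of 2DG plus anti-PD-L1 it took 37 of only 44. Since reads can still be divided between the genes elsewhere, the summed level of both is used.

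Levels were read in classes of cells set by marker genes, called gates, after cells with under 250 genes or over 5% mitochondrial UMIs were left out, which kept 51633 of 57078 barcodes. A level in CPM is then the gene's count per 1000000 UMIs of all cells of the gate in that library. A total of 11 gates held at least 50 cells in every library, and NK cells did so in all but the control. Kept cells had a median of 6196 to 7732 UMIs, and 53.5% to 67.2% of them fell in a gate. The cells over the mitochondrial limit were 5.86% of barcodes in the control and 8.93% to 11.2% elsewhere. Any pair of libraries shared between 16 and 34 barcodes. Intervals are exact 95% intervals that cover counting error only.

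Hspa1a and Hspa1b, the stress-inducible HSP70 genes, were the members that differed most between libraries. In the CD8 T gate the summed level was 929.9 CPM (862 to 1002) in the control from 101 cells. It was 312.5 in 2DG, 166.4 in 2FF, 129.9 in anti-PD-L1 and 109.3 in 2FF plus anti-PD-L1, and it was 24.3 CPM (21.3 to 27.6) in 2DG plus anti-PD-L1 from 1457 cells. The control therefore stood at the top and 2DG plus anti-PD-L1 at the bottom in this gate. In the macrophage gate, the level was 741.9 CPM in the control, 214.3 in 2DG, 163.4 in 2FF, 160.2 in anti-PD-L1, 92.8 in 2DG plus anti-PD-L1 and 170.8 in 2FF plus anti-PD-L1. The values of 2FF plus anti-PD-L1, 2FF and anti-PD-L1 had overlapping intervals there and cannot be put in order.

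**Figure D1:**
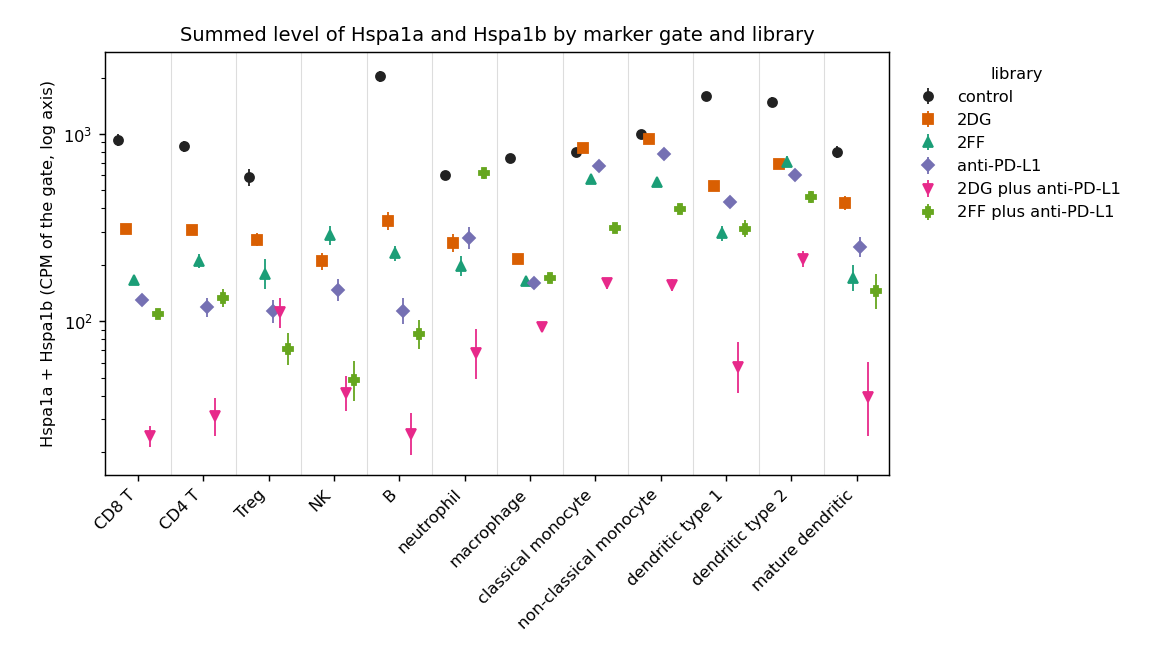
Summed level of Hspa1a and Hspa1b (CPM of the gate, log axis) in each marker gate, with 1 point per library and bars for exact 95% counting intervals, 1 mouse per library. The control is the highest point in 9 of 11 gates, 2DG plus anti-PD-L1 is the lowest in 10, and NK cells have no control point.

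A like order recurred across cell classes. The pair was highest in the control in 9 of 11 gates, as were 2.27% of the 6474 genes that averaged at least 20 CPM over these gates. It was lowest in 2DG plus anti-PD-L1 in 10 of 11 gates, as were 0.34% of genes. The ratio of the highest to the lowest library ranged from 5.26 in one gate to 80.8 in another, the latter being B cells, with 2029 CPM in the control and 25.1 CPM in 2DG plus anti-PD-L1. Without the cell with the most UMIs in each of these libraries the B cell levels were 1767 and 7.72 CPM and the ratio 229. That cell was picked by its UMIs of the pair. It held 16.3% of them in the control and 69.4% in 2DG plus anti-PD-L1, so the step itself widens the ratio. In regulatory T cells (Treg) the lowest library was 2FF plus anti-PD-L1, at 71.2 CPM against 111.4 CPM in 2DG plus anti-PD-L1. When the order was taken over the 5 treated libraries alone, an alternative added after the data were seen, 2DG was highest in 9 of 11 gates (0.201% of genes) and 2DG plus anti-PD-L1 lowest in 10 (0.618% of genes).

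Monocytes and neutrophils departed from the order. In classical monocytes the control and 2DG were close, with 802.2 and 836.6 CPM, while anti-PD-L1 had 676.4, 2FF 574.1, 2FF plus anti-PD-L1 313.3 and 2DG plus anti-PD-L1 159.1 CPM. Non-classical monocytes gave 1000.2 CPM in the control and 943.3 CPM in 2DG, against 156.5 CPM in 2DG plus anti-PD-L1. In neutrophils 2FF plus anti-PD-L1 matched the control, with 616.4 and 600.2 CPM, and the other 4 libraries lay between 67.9 and 277.8 CPM. The neutrophil gate held 2515 cells in the control and 200 to 407 in the other libraries, and its median depth was 2585 to 3902 UMIs per cell.

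The counts were uneven between cells. In the CD8 T gate 33.7% of control cells and 95.5% of 2DG plus anti-PD-L1 cells had no UMI of the pair. A single cell held 39 of the 241 UMIs in the latter. In CD8 T cells of 2FF plus anti-PD-L1 a single cell held 169 of 885 UMIs. Without that cell the level there was 88.6 CPM (82.3 to 95.4) in place of 109.3. One cell also held 75 of 115 UMIs of the Treg gate, 61 of 89 of the NK gate and 43 of 62 of the B gate in 2DG plus anti-PD-L1. Without the cell with the most UMIs in each gate and library, a second alternative added after the data were seen, 2DG plus anti-PD-L1 was lowest in 11 of 11 gates. The cell was picked by its UMIs of the pair, so the step lowers most the levels that rest on 1 cell. This count is thus no support for the order. The level of 2DG plus anti-PD-L1 was then 39.1 CPM (28 to 53.3) in Treg in place of 111.4, 13 in NK cells in place of 41.3, 7.72 in B cells in place of 25.1 and 35.7 in neutrophils in place of 67.9. The control was again highest in 9 gates, but not in the same ones. In non-classical monocytes, where 1 control cell held 345 of 3483 UMIs, it was at 902.9 CPM against 921.3 in 2DG, and in neutrophils it was at 581.9 CPM against 551.7 in 2FF plus anti-PD-L1.

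The order in CD8 T cells was the same at equal depth. After each cell was thinned to 2000 UMIs, 51.5% of 91 CD8 T cells in the control, 28.9% of 1142 in 2DG, 16.6% of 1723 in 2FF, 14.6% of 1341 in anti-PD-L1, 1.97% of 1449 in 2DG plus anti-PD-L1 and 10.1% of 898 in 2FF plus anti-PD-L1 kept a UMI of the pair. Unthinned shares were 66.3%, 44.6%, 28.1%, 26.2%, 4.46% and 22.1%. Between 5 and 19 cells per library were too shallow and were left out. No gate is known to lack these genes, so free RNA could not be measured in cells without them. In 2DG plus anti-PD-L1 the lowest thinned share was 1.29% in B cells and the highest 25% in type 2 dendritic cells. In the macrophage gate the thinned shares were 43.4% in the control, 22.8% in 2DG, 11.8% in 2DG plus anti-PD-L1 and 16.3% to 18% in the other 3 libraries.

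Comparisons between libraries are given as the log2 ratio of CPM plus 5, for each gene whose UMIs in both libraries summed to 50 or more, and a gene was counted as different when the ratio passed 2-fold. Relative to the control, the pair was lower past 2-fold in 8 of 11 gates for 2DG, 9 for 2FF and 9 for anti-PD-L1, and it was higher past 2-fold in none. Among genes that reached the UMI minimum in every gate, 0.421%, 0.26% and 0.285% were lower in at least as many gates. The median log2 ratio over gates was -1.18, -2.01 and -1.86. In CD8 T cells the ratios were -1.56 (-1.68 to -1.44), -2.45 (-2.57 to -2.32) and -2.79 (-2.93 to -2.66), where 3.52%, 4.81% and 4.44% of all genes passed 2-fold in either direction. In macrophages they were -1.77, -2.15 and -2.18, where 2.2%, 3.16% and 2.24% of genes passed. Of the 9 members tested in CD8 T cells, 3, 4 and 4 were lower past 2-fold in the 3 comparisons, and of the 10 in macrophages 4 were lower in each. No member was higher past 2-fold in either gate. These 3 comparisons share the control library, in which each gate of T, B and dendritic cells held 63 to 123 cells.

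With 2DG added to anti-PD-L1, 2 of 2737 genes tested in every gate (0.0731%) were lower past 2-fold in at least 10 of 12. These genes were Hspa1a and Hspa1b themselves. Their summed level was lower past 2-fold in 10 of 12 gates, with a median log2 ratio of -1.97. The exceptions were macrophages, at -0.76 (-0.86 to -0.65), where 1.26% of genes passed 2-fold, and Treg, at -0.02 (-0.35 to 0.31). In Treg 1 cell held 65.2% of the pair's UMIs in 2DG plus anti-PD-L1, against 6.91% in anti-PD-L1. Without the top cell of each library the Treg ratio was -1.33, and 11 of 12 gates were lower. That cell was picked by the UMIs measured, so the step lowers most a level that rests on 1 cell. It therefore gives no support to a count above 10. In CD8 T cells the ratio was -2.20 (-2.38 to -2.03), where 0.692% of 10840 genes passed 2-fold in either direction and 0.249% were lower. Against 2DG alone, the pair in 2DG plus anti-PD-L1 was lower past 2-fold in 12 of 12 gates. Of 3169 genes tested in every gate, 1 was lower in all 12 (0.0316%), and it was Hspa1b itself. The ratio of the pair was -3.44 in CD8 T cells and -1.17 in macrophages, where 1.02% and 0.901% of genes passed. Addition of 2FF to anti-PD-L1 showed no such pattern, with 2 gates lower (at least as many in 0.632% of genes), 1 higher and a median of -0.44. The CD8 T ratio was -0.24 (-0.36 to -0.12) and that of macrophages was 0.09, with an interval that spanned 0, where 0.443% and 0.648% of genes passed 2-fold. For 2FF plus anti-PD-L1 over 2FF, 3 gates were lower (at least as many in 0.56% of genes) and 1 higher, and the ratio was -0.58 in CD8 T cells and 0.06 in macrophages, where 0.404% and 0.476% of genes passed.

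Hsph1, an HSP110 protein that acts as nucleotide exchange factor for HSP70, followed the pair closely. It was highest in the control in 11 of 11 gates, as were 0.278% of genes, and lowest in 2DG plus anti-PD-L1 in 10. In neutrophils the control and 2DG, at 70.2 and 70.1 CPM, cannot be put in order (log2 ratio -0.003, -0.32 to 0.30). At least 10 gates were highest in the control for 0.911% of genes. In CD8 T cells Hsph1 was at 627.9 CPM in the control, 373.8 in 2DG, 243 in 2FF, 247.2 in anti-PD-L1, 135 in 2DG plus anti-PD-L1 and 234.1 in 2FF plus anti-PD-L1. In macrophages the control, at 278.4 CPM, stood apart from the treated libraries, which lay at 41 to 71.5 CPM. Over gates the ratio of the highest to the lowest library was 1.95 to 15.5. Past 2-fold it was lower than in the control in 5 gates for 2DG, 9 for 2FF and 8 for anti-PD-L1, where 1.26%, 0.26% and 0.518% of genes tested in every gate were lower in at least as many. It was lower in 1 gate of 11 for 2DG plus anti-PD-L1 relative to anti-PD-L1, and no share of all genes is given beside this count.

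Dnajb1, the HSP40 co-chaperone that delivers substrates to HSP70, showed a smaller spread. Its CD8 T level was 252.5 CPM in the control, 105.8 in 2DG, 99.3 in 2FF, 82.5 in anti-PD-L1, 58 in 2DG plus anti-PD-L1 and 68.1 in 2FF plus anti-PD-L1. In macrophages only the control, at 79.8 CPM, lay outside the range of the others, 52 to 56.8 CPM. It was highest in the control in 7 gates (7.43% of genes) and lowest in 2DG plus anti-PD-L1 in 8 (2.02% of genes). None of 12 gates passed 2-fold for 2DG plus anti-PD-L1 relative to anti-PD-L1, where the median log2 ratio was -0.48.

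**Figure D2:**
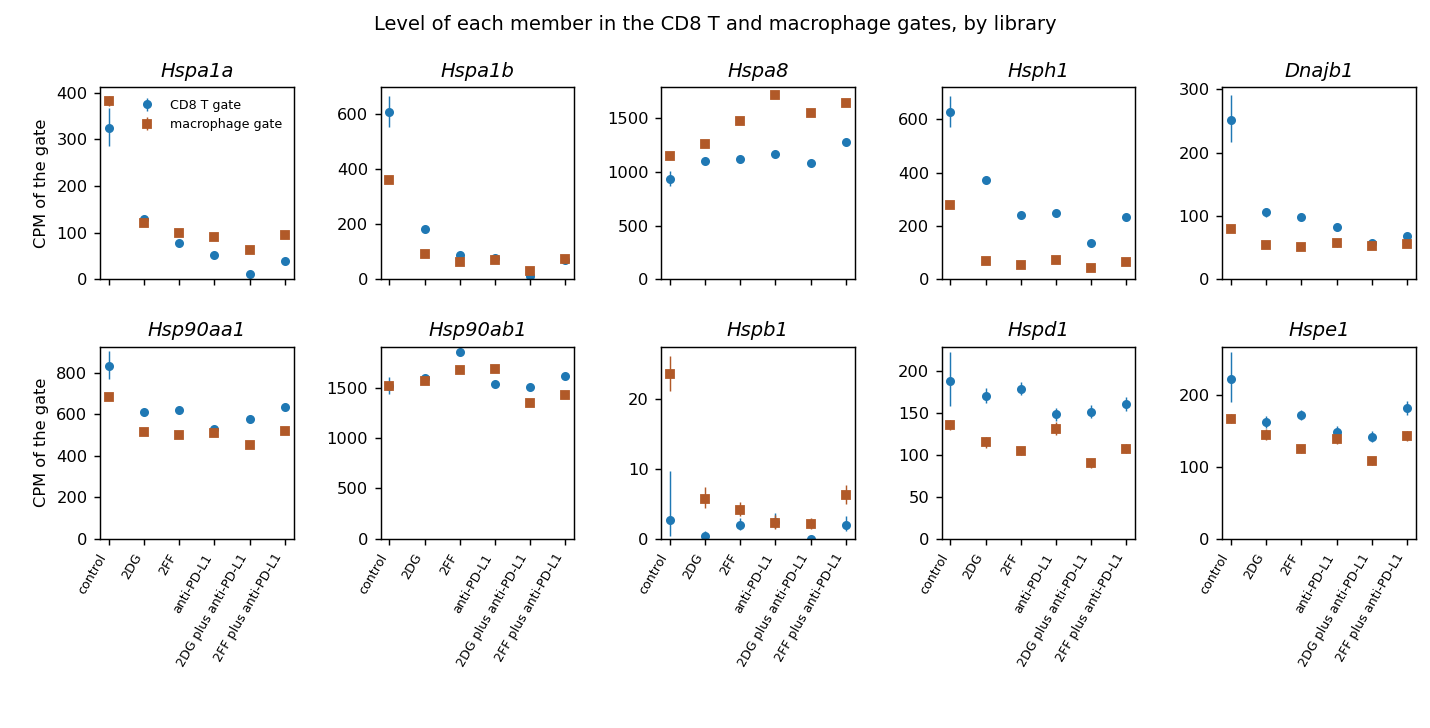
Level of each of the 10 members (CPM of the gate, axes from 0) in the CD8 T and macrophage gates of the 6 libraries, with exact 95% counting intervals and 1 mouse per library. Hspa1a, Hspa1b, Hsph1, Dnajb1, Hsp90aa1, Hspd1 and Hspe1 are highest in the control in both gates. So is Hspb1, which had 2 UMIs in control CD8 T cells, whereas Hspa8 is lowest in the control in both gates. For Hspd1 the control is not set apart from every other library. Its log2 ratio over control was -0.05 (-0.15 to 0.06) for anti-PD-L1 in macrophages. In CD8 T cells it was -0.14 (-0.38 to 0.11) for 2DG and -0.07 (-0.31 to 0.18) for 2FF.

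Hspa8, the constitutive HSP70, did not follow the pair. It was lowest in the control in 8 of 11 gates, as were 7.38% of genes, and the ratio of highest to lowest library was only 1.19 to 2.28. The macrophage levels were 1153 CPM in the control, 1265 in 2DG, 1474 in 2FF, 1718 in anti-PD-L1, 1554 in 2DG plus anti-PD-L1 and 1639 in 2FF plus anti-PD-L1. In CD8 T cells they ranged from 936.5 CPM in the control to 1279 CPM in 2FF plus anti-PD-L1. No gate passed 2-fold in any of the 7 comparisons.

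The cytosolic HSP90 genes also separated by type. Hsp90aa1, the inducible form, was highest in the control in 9 of 11 gates, as were 2.27% of genes. Its CD8 T level was 835 CPM in the control against 530.9 to 637.2 CPM in the other libraries. In 2 of 11 gates, B cells and neutrophils, it was lower than in the control past 2-fold in the 2DG, the 2FF and the anti-PD-L1 library, and 4.39%, 4.5% and 3.52% of genes were lower in at least 2 gates. Neutrophils held 1299.5 CPM in the control, 837.9 in 2FF plus anti-PD-L1 and 407.2 to 604.1 elsewhere. Hsp90ab1, the constitutive form, was highest in the control in 1 gate and lowest in 3. These counts are ordinary, since 78% and 57.3% of genes were so in at least as many gates. Its CD8 T level was 1510 to 1860 CPM over the 6 libraries. The neutrophil gate was the exception, with 159.7 CPM in the control and 359.4 to 707.5 CPM in the treated libraries. In that gate 21.6%, 17.9% and 14.2% of all genes passed 2-fold for 2DG, 2FF and anti-PD-L1 over the control, so differences there were common among genes at large.

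**Figure D3:**
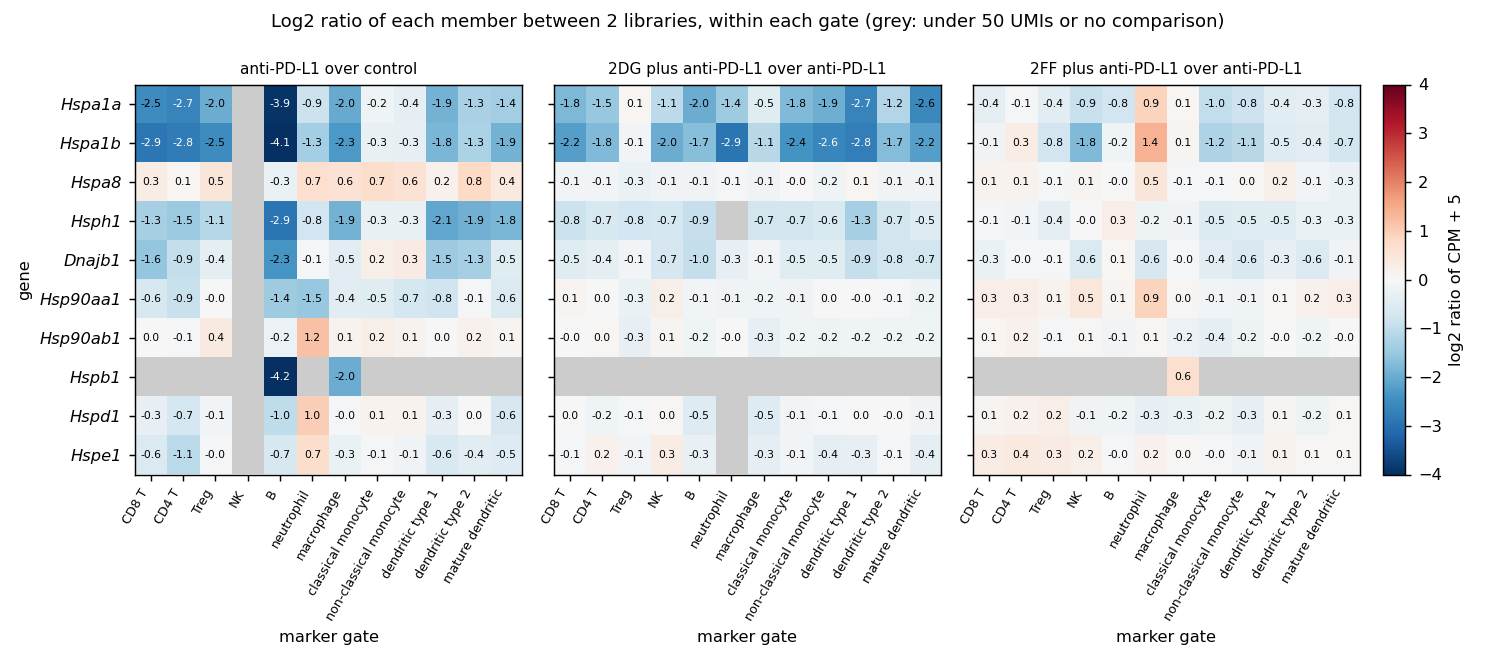
Log2 ratio of CPM plus 5 for each member and gate in 3 comparisons, with blue for lower and red for higher in the first-named library and grey where the 2 libraries together held under 50 UMIs or no comparison was possible. For anti-PD-L1 over control the lower values include Hsph1 and Dnajb1, for 2DG plus anti-PD-L1 relative to anti-PD-L1 the largest are Hspa1a and Hspa1b, and for 2FF plus anti-PD-L1 relative to anti-PD-L1 the one value above 2-fold is Hspa1b in neutrophils, at 1.38.

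Hspb1, the small heat shock protein HSP27, was scarce in leukocytes and reached 50 UMIs in the 2 libraries together only in B cells and macrophages among the comparisons with the control. Its B cell level was 141.5 CPM in the control, but 60 of those 68 UMIs came from 1 of 70 cells. In macrophages it was at 23.6 CPM in the control, from 49 of 1022 cells, and at 2.05 to 6.24 CPM in the treated libraries. The 78 cells of all libraries in the tumor cell gate, pooled because no library held 50, had 278.3 CPM (255.8 to 302.3). That gate also had 3743 CPM of Hsp90ab1, with 64 CPM of Hspa1b and 7.44 CPM of Hspa1a.

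The mitochondrial chaperonin genes Hspd1 (HSP60) and Hspe1 (HSP10) overlap on chromosome 1. They are transcribed in opposite directions from 5' ends that lie 111 bases apart, each inside the other gene. Hspe1 was lowest in 2DG plus anti-PD-L1 in 9 of 11 gates (0.958% of genes), and Hspd1 in 4 (21.5% of genes). Their spread was small in most gates. In CD8 T cells Hspe1 was at 223.1 CPM in the control and 142 to 182.1 CPM elsewhere, and Hspd1 at 188.4 CPM and 148.4 to 178.9 CPM. Neither passed 2-fold in any gate when 2FF or 2DG was added to anti-PD-L1. In neutrophils both did for 2DG over control, where 21.6% of all genes passed, with log2 ratios of 2.45 for Hspd1 and 2.08 for Hspe1. Both also passed there for 2DG plus anti-PD-L1 over 2DG, with -1.38 and -1.80. Hspd1 was also lower past 2-fold in B cells for 2DG over control, at -1.02 (-1.39 to -0.66), and, just past the limit, for anti-PD-L1 over control. Hspe1 was so in CD4 T cells for anti-PD-L1 over control, at -1.07 (-1.33 to -0.80). The intervals in B and CD4 T cells reached inside 2-fold. Apart from neutrophils for 2DG over control, no share of all genes is given beside these calls.

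Some members were also compared between cells of 1 library with and without the pair. The cases given are examples, and no ratio over all genes is given beside them. Cells with under 2000 UMIs were left out of this comparison. CD8 T cells of the 2DG library with at least 3 UMIs of the pair (298 cells) had a mean of 638.5 CPM of Hsph1, against 245.6 CPM in the 631 cells with none, a ratio of 2.6. For Dnajb1 the ratio was 2.27, for Hsp90aa1 1.93, for Hspa8 1.46 and for Hsp90ab1 1.39. In control macrophages, with 486 and 312 cells, the ratio was 13.5 for Hsph1 and 3.05 for Dnajb1 but 1.19 for Hsp90ab1. The 15 immediate early genes together had a ratio of 1.18 in the first and 0.951 in the second. Cells with the pair were deeper, with a median of 6829.5 against 6098 UMIs in the CD8 T cells and 15017.5 against 12250 in the macrophages, and the part of depth in these ratios was not tested.

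Other genes of the chaperone system were read from lists. Of 20 co-chaperones of HSP70 and HSP90, the sum in CD8 T cells was 2124 to 2300 CPM over the 6 libraries, and in macrophages 1833 to 2029 CPM. Bag3, a co-chaperone and known HSF1 target, was past 2-fold lower than in the control in macrophages of the 2DG, 2FF and anti-PD-L1 libraries, at 134.7 CPM in the control and 45.5 to 47.9 CPM in these, while 18 to 19 of the 20 did not differ past 2-fold in that gate. None of the 20 passed 2-fold in CD8 T cells or macrophages for 2DG plus anti-PD-L1 relative to anti-PD-L1. Their median log2 ratio in CD8 T cells was -0.04, beside -0.06 over all genes and -0.10 over the 9 members tested. The 8 subunits of the cytosolic chaperonin CCT summed to 745 CPM in the control CD8 T cells and 926 to 1038 CPM in the treated libraries. The 6 mitochondrial chaperones and proteases summed to 166 to 207 CPM, and the 15 endoplasmic reticulum chaperones and stress genes to 1813 to 2197 CPM. Hsf1, the factor that drives the response, had 14.7 CPM in control CD8 T cells and 27.8 to 41.1 CPM in the others. The control gate held 101 cells and 748504 UMIs of all genes, so its value rests on few Hsf1 UMIs.

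Tissue dissociation is also known to raise immediate early genes, so 15 of these were read beside the members. Their sum in CD8 T cells was 5164 CPM in the control, 3842 in 2DG, 5762 in 2FF, 4309 in anti-PD-L1, 6342 in 2DG plus anti-PD-L1 and 4918 in 2FF plus anti-PD-L1. In macrophages it was 12343, 9751, 11162, 9646, 15922 and 13657 CPM in the same order. The library with the least Hspa1a and Hspa1b thus had the highest sum of these 15 genes in both gates. For 2DG plus anti-PD-L1 relative to anti-PD-L1, 13 of 15 had a ratio above 0 in CD8 T cells and 14 of 15 in macrophages, with medians of 0.61 and 0.72 beside -0.06 and -0.08 over all genes. The part of tissue handling in the levels of the members was not tested.

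**Figure D4:**
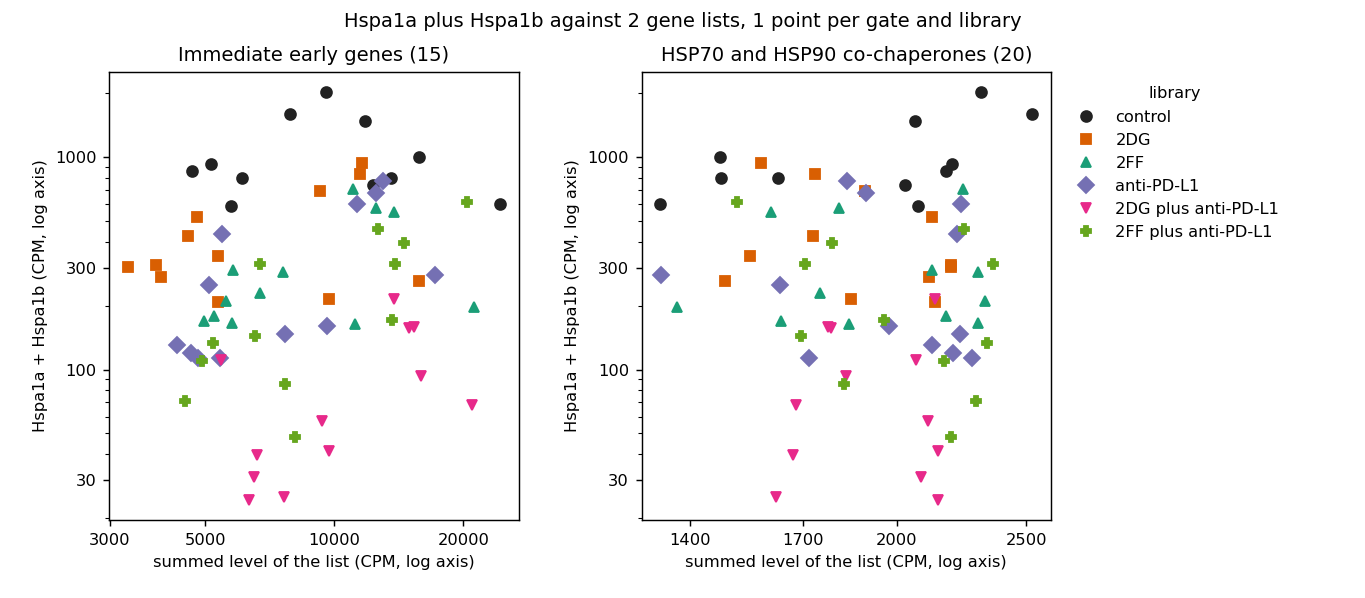
Summed level of Hspa1a and Hspa1b (CPM, log axis) against the summed level of 15 immediate early genes (left) and of 20 co-chaperones of HSP70 and HSP90 (right), with 1 point per gate and library. Points are shown for the 11 gates present in all libraries and for NK cells, which have no control point. Over gates the control lies at 587.1 to 2029 CPM of the pair and 2DG plus anti-PD-L1 at 24.3 to 215.6 CPM, while the other 4 libraries overlap each other and both of these.

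Genes with a pattern like that of the pair were sought by Pearson's r of log2 levels centred within each gate, over 66 points that are 11 gates in the same 6 libraries and so are not independent. Among 6474 genes, Hsph1 (r = 0.89) and Dnajb1 (r = 0.83) ranked the third and the fourth after Hspa1a and Hspa1b themselves. Hsp90aa1 followed at 0.67, Hspe1 at 0.58 and Hspd1 at 0.41, whereas Hsp90ab1 was at 0.07 and Hspa8 at -0.26. The 10 non-members most like the pair were Rsrp1 (0.77), Bag3 (0.75), Gphn (0.74), Appl2 (0.72), Sh2d3c (0.71), Ubqln1 (0.70), P4ha1 (0.70), Gm42418 (0.68), Mtmr3 (0.68) and Tec (0.67). At the other end stood Rbm39 (-0.77) and Srsf5 (-0.74), which encode splicing factors. The immediate early genes of the list went both ways, from Jun (0.49) and Ier3 (0.32) to Ier2 (-0.67) and Junb (-0.69). Gm42418 overlaps ribosomal RNA sequence and is known to collect its reads. It made up 57381 CPM of CD8 T cells in the control, 72581 in 2DG, 35770 in 2FF, 53844 in anti-PD-L1, 27574 in 2DG plus anti-PD-L1 and 39273 in 2FF plus anti-PD-L1, so the library lowest in the pair was lowest in it as well, and its part in the levels of the members was not tested. Hemoglobin transcripts, a sign of red blood cell RNA, summed to 162 CPM in the CD8 T gate of the control and to 0.504 to 14.8 CPM in that of the other libraries. Over all kept cells the control was not set apart by the level of these transcripts. The hemoglobin gene Hbb-bs was at 67 CPM there, 90.3 in 2FF plus anti-PD-L1 and 64.1 in 2FF. It was at 59.5 in 2DG plus anti-PD-L1, 49.5 in 2DG and 15.8 in anti-PD-L1. The share of kept cells with an Hbb-bs UMI was largest in the control, at 2.62% against 0.42% to 1.78% in the other libraries. Shares were also largest in the control for Hba-a1, at 1.09%, and Hba-a2, at 1.02%.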

How the data were processed

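Tissue from 6 mice was dissociated and captured with the 10x 3' v3.1 chemistry, and the deposited count matrices hold UMIs per gene and cell, not normalized. The file headers name Cell Ranger 7.0.0, the submitters' processing notes Cell Ranger 3.1.0 and mm10. The methods' filters (250 genes, 5% mitochondrial UMIs) were not yet imposed on the deposited counts, so they were imposed as a first step. Libraries held 61859753 to 73885214 UMIs. Cells were gated by marker UMIs, cells in several lineages were left out, and doublets were otherwise not called. UMIs were summed per gate and library and expressed as CPM of the gate, with exact Poisson intervals for levels, Clopper-Pearson intervals for shares and ratios, and a pseudocount of 5 CPM in ratios. With 1 mouse per group no test was made, and 2-fold served as a fixed rule over all genes with at least 50 UMIs. The members and gene lists were chosen with earlier results of these data known. Genes named were the members, the listed genes and, as genes most like the inducible pair, the 10 non-members with the highest correlation. The ratio step was tested on simulated counts. Gene positions came from GENCODE (GRCm38), promoters from RefSeq (GRCm38.p6). Alternatives were another pseudocount, other UMI minimums, other mitochondrial limits, doubled gate thresholds, removal of the deepest 5% of cells, thinning, median centring and means over cells, run for all members in CD8 T cells and macrophages and for the pair in every gate. Python 3.11.15 with numpy 2.4.6, scipy 1.17.1, pandas 2.3.3 and matplotlib 3.10.9 was used.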

Additional observations from a re-analysis of the deposited data

Results flagged for a closer look

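The summed level of Hspa1a and Hspa1b moved in opposite directions between cell classes in both comparisons that add anti-PD-L1 or 2FF to the other. For 2FF plus anti-PD-L1 relative to anti-PD-L1 the log2 ratio was 1.14 in neutrophils, but -1.51 in NK cells and -1.10 in classical monocytes. For 2FF plus anti-PD-L1 over 2FF it was 1.62 in neutrophils, against -1.27 in Treg, -2.46 in NK cells and -1.39 in B cells. Each was past 2-fold, each direction rests on 1 mouse per library, and the difference between the classes was not tested. In the neutrophil gate 5.44% and 3.58% of all genes passed 2-fold in these comparisons, and no such share is given for the other gates one by one. Of genes tested in every gate, 0.632% were lower past 2-fold in at least 2 of 12 gates in the first comparison. In the second, 0.56% were so in at least 3 of 12. The pair held 70 UMIs in NK cells, 107 in Treg and 125 in B cells of 2FF plus anti-PD-L1. Without the cell with the most UMIs, neutrophils of 2FF plus anti-PD-L1 were at 551.7 CPM (513.5 to 592.1) in place of 616.4 CPM.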

How the results depend on the processing

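In the CD8 T and macrophage gates no alternative reversed a ratio of a member past 2-fold, and 250 of 280 values for the pair and for the count of members past 2-fold stayed within their counting interval or within 1.5 times the count. The cause of the moves was not tested. Over all gates only the pair was recomputed. None of its 495 values for ratios past 2-fold reversed, 6 were no longer past it, and the counts of gates lower past 2-fold moved by at most 1. With doubled gate thresholds the macrophage ratio of the pair was -2.04 for 2DG, -2.36 for 2FF and -2.52 for anti-PD-L1 over control, -0.58 and 0.31 for 2DG and 2FF added to anti-PD-L1, -1.06 for 2DG plus anti-PD-L1 over 2DG and 0.15 for 2FF plus anti-PD-L1 over 2FF, and the CD8 T ratio was 0.035 for 2FF plus anti-PD-L1 relative to anti-PD-L1 and -0.27 over 2FF. Without the deepest 5% of cells the macrophage ratio was -1.69 for 2DG over control, 0.20 for 2FF plus anti-PD-L1 relative to anti-PD-L1, -1.32 for 2DG plus anti-PD-L1 over 2DG and 0.15 for 2FF plus anti-PD-L1 over 2FF. Thinning gave -1.69 and -1.27 for 2DG over control and 2DG plus anti-PD-L1 over 2DG in macrophages, and -0.46 and -0.78 for 2FF plus anti-PD-L1 relative to anti-PD-L1 and over 2FF in CD8 T cells. Means over cells gave -2.09 for 2FF over control in macrophages, and -0.43 and -0.77 for 2FF plus anti-PD-L1 relative to anti-PD-L1 and over 2FF in CD8 T cells. A pseudocount of 1 gave -3.63 for 2DG plus anti-PD-L1 over 2DG in CD8 T cells. Without the cell with the most UMIs of the pair, an alternative chosen after seeing the data, CD8 T cells gave -0.47 and -0.83 for 2FF plus anti-PD-L1 relative to anti-PD-L1 and over 2FF. The count of members past 2-fold became 0 from 1 with doubled gate thresholds for 2DG plus anti-PD-L1 relative to anti-PD-L1 in macrophages, 1 from 0 with a pseudocount of 1 for 2FF plus anti-PD-L1 relative to anti-PD-L1 in macrophages, 2 from 1 with that pseudocount and without the deepest cells for 2DG plus anti-PD-L1 over 2DG in macrophages, and 1 from 0 with thinning, with means over cells and without the top cell for 2FF plus anti-PD-L1 over 2FF in CD8 T cells. No paired analysis was possible because each group is 1 mouse, and for the same reason no replicate could be left out. Depth limits Hspb1, Hspd1 in neutrophils and every value of the control CD8 T gate, which rests on 101 cells.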
